A study of Homo sapiens with 8 samples.

Results

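LIPA and 8 other genes that handle cholesterol, its esters or stored triglyceride were followed in MDA-MB-231 cells after treatment with the compound EMD37. MDA-MB-231 is an established human triple-negative breast cancer line. The members were a fixed list of symbols: LIPA, NPC1 and NPC2 of the lysosome, SOAT1 of the endoplasmic reticulum, and NCEH1, LIPE, PNPLA2, ABHD5 and MGLL of neutral lipid hydrolysis. All 9 were found by Ensembl ID among the 36715 genes of the count table, and all 9 passed the filter on low counts. Cells grew in DMEM with serum and were given either 0.5 µM EMD37 or the solvent DMSO (vehicle). RNA was taken after 12 h and after 24 h, and each of the 4 groups has 2 RNA-seq libraries, A and B. The series title places the study in endoplasmic reticulum stress in cancer cells.

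Cholesterol esters reach the cell mainly inside lipoproteins taken up by endocytosis. In the lysosome, acid lipase (LIPA) splits the ester, NPC2 carries the freed cholesterol to the membrane protein NPC1, and NPC1 passes it out of the lysosome. In the endoplasmic reticulum, SOAT1 joins surplus cholesterol to a fatty acid again, the ester is stored in lipid droplets, and neutral hydrolases such as NCEH1 and LIPE can release it. PNPLA2 (adipose triglyceride lipase), its co-activator ABHD5 and monoglyceride lipase (MGLL) act on stored triglyceride and its breakdown products.

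Each library held 8.99 to 11.44 M counted reads (M, mega), and log2 CPM of the 2 libraries of a group correlated at 0.988 to 0.992 across genes. CPM is a gene's reads per M reads of the library, with library sizes scaled by TMM. A total of 3 reads, the limit that a count of 0 allows, stood for 0.262 to 0.334 CPM. Of the line's mesenchymal markers, VIM ran from 1283 to 1740 CPM and CD44, AXL, MSN and CAV1 were also abundant, while S100A4 was at 5.53 to 8.14 CPM. Luminal epithelial markers summed to 4.81 to 8.66 CPM over 6 genes, and CDH1 reached at most 2 reads. Sums over 5 markers each were at most 2.69 CPM for leukocytes, 3.13 for fibroblasts and 1.58 for adipocytes. The mesenchymal sum was 5660 to 5926 CPM in the EMD37 libraries at 24 h and 6930 to 7380 CPM in vehicle, and at 12 h it was 6458 to 6585 CPM in EMD37 and 6945 to 7019 CPM in vehicle. Its part in the results below was not tested.

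At 24 h SOAT1 rose 1.41-fold, NPC1 rose 1.60-fold, MGLL rose 1.29-fold, and NCEH1 fell to 0.704 of its vehicle level. The MGLL call was lost in 5 of 14 alternatives, and its log2 change of 0.37 was 0.166 without vehicle library A at 24 h and 0.629 without library B. The calls of SOAT1, NPC1 and NCEH1 held in 14 of 14. LIPA, the lysosomal ester hydrolase itself, was at 0.942 of vehicle and did not pass the test. In all, 4 of 9 members passed at 24 h (an adjusted p under 0.05 in the quasi-likelihood test of edgeR, with p-values adjusted by Benjamini-Hochberg over 14850 genes), 3 higher and 1 lower. Over all genes tested, 40.7% passed in this comparison (19.6% higher and 21.1% lower), so the members' count of 4 in 9 lay near the background. At 12 h 2 of 9 members passed, NPC1 higher and ABHD5 lower, where 8.7% of all genes passed (5.27% higher and 3.43% lower). DESeq2 called 0 members at 12 h and 4 at 24 h. The median log2 change of the 9 members was -0.045 at 12 h and 0.267 at 24 h, beside -0.006 and -0.033 over all genes. The 24 h median is the value of LIPE, which had 19 to 28 reads per library and was not called. That value ran from 0.037 to 0.519 over the alternatives.

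**Figure D1:**
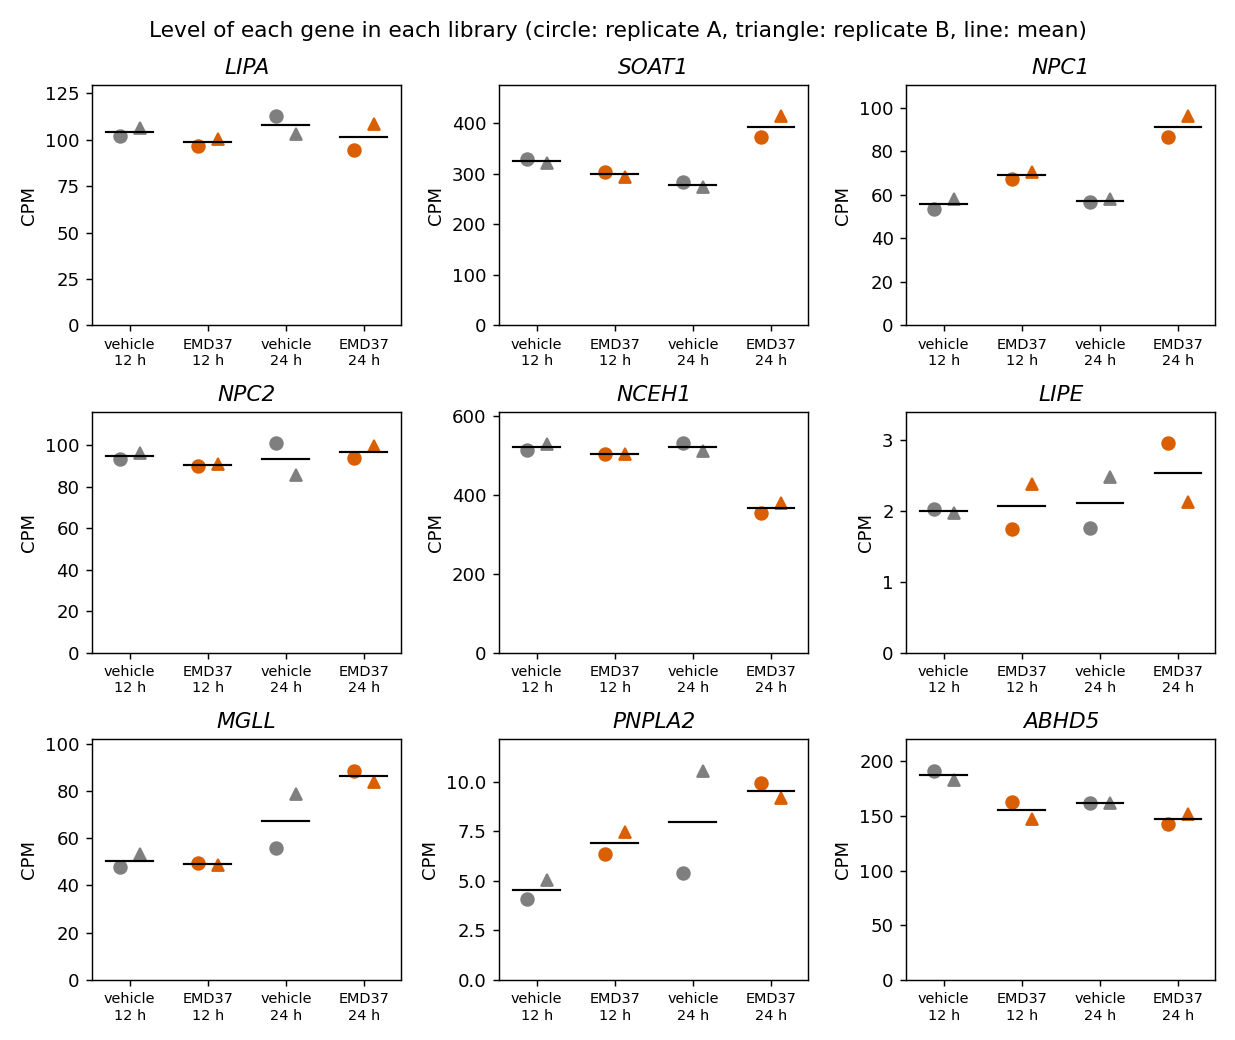
CPM of each of the 9 genes in the 8 libraries, by group, with 1 point per library and a bar at the group mean. NCEH1 sits at 352 and 379 CPM in the EMD37 libraries at 24 h, below its other 6 libraries, while LIPA overlaps between EMD37 and vehicle at 24 h.

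SOAT1 and NCEH1, called in opposite directions at 24 h, make and split the same kind of ester, and upstream sequence of each is given for this reason. Each stretch is the longest run outside the annotated exons of any gene, within the upstream 250 bases of the RefSeq promoter (GRCh38.p14). Bases are given 5′ to 3′ on the gene's strand. SOAT1 is chr1:179293547-179293713 on the plus strand, 250 to 84 bases before its start at 179293797. NCEH1 is chr3:172711219-172711317 on the minus strand, 250 to 152 bases before its start at 172711067. Capitals mark searched motifs that lie wholly inside a stretch.
SOAT1: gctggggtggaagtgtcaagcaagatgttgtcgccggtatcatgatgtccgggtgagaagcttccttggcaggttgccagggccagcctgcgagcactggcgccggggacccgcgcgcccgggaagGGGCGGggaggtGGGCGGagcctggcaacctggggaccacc
NCEH1: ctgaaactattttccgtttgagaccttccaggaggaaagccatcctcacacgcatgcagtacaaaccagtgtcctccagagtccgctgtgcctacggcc
The SOAT1 stretch holds the GC box GGGCGG at 2 places and the NCEH1 stretch holds no searched motif. The stretches cover different distances from the start. In each gene a CCAAT box was not wholly inside the stretch, at 85 bases before the start in SOAT1 and 44 in NCEH1. The full 250 bases before each start were searched on both strands for 8 of the 9 members, over 14 entries. MGLL had no entry. GGGCGG was found in 11 of the 14 entries, from 7 of the 8 members (not NCEH1), and in 42.6% of 35116 single promoters. CCAAT was found in 7 of the 14 entries, from LIPA, LIPE, NCEH1, NPC2 and SOAT1, and in 32% of all promoters. Entries of a gene can overlap. The sterol response element TCACNCCAC was found in 1 entry, of PNPLA2, and in 0.883% of all promoters. TATAAA (10.7% of all), the E-box CACGTG (6.34%), its longer lysosomal form TCACGTGA (0.854%, which contains the E-box), TGATGNAAT (0.888%), TGACGTGG (0.612%) and the endoplasmic reticulum stress response element (CCAAT, any 9 bases, then CCACG; 0.074%) were found in 0 of the 14 entries.

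Among the lysosomal members, LIPA (ENSG00000107798, hg38 chromosome 10, 89213569 to 89414557, minus strand) is the acid hydrolase of cholesterol esters and triglycerides. At 12 h it measured 102 and 106 CPM in vehicle libraries A and B and 96.5 and 101 CPM in EMD37 libraries. At 24 h vehicle gave 113 and 103 CPM, and EMD37 gave 94.6 and 109 CPM. The EMD37 libraries lay just below vehicle at 12 h, and the groups overlapped at 24 h. Its log2 change was -0.08 (SE 0.09, adjusted p = 0.649) at 12 h and -0.09 (SE 0.09, adjusted p = 0.46) at 24 h. The 95% interval of the fold ran from 0.834 to 1.07 at 12 h and from 0.829 to 1.07 at 24 h. In bulk RNA, fewer cells with a transcript and less of it per cell cannot be told apart.

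NPC2 (ENSG00000119655, chromosome 14, 74476192 to 74494177, minus strand) is the soluble lysosomal carrier of cholesterol. It measured 93.6 and 96.4 CPM in vehicle and 90.0 and 91.2 CPM in EMD37 at 12 h, and 101 and 85.4 against 94.1 and 99.8 CPM at 24 h. The 24 h vehicle libraries spanned both EMD37 values. Its log2 change of -0.07 (SE 0.09) at 12 h and 0.06 (SE 0.09) at 24 h did not pass, with adjusted p of 0.71 and 0.65.

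NPC1 (ENSG00000141458, chromosome 18, 23506184 to 23586898, minus strand), the membrane exporter that receives cholesterol from NPC2, had the largest change of the 9 at 24 h. Vehicle libraries measured 53.6 and 58.2 CPM at 12 h and 56.6 and 58.0 CPM at 24 h. EMD37 libraries measured 67.4 and 70.6 CPM at 12 h and 86.6 and 96.1 CPM at 24 h. Every EMD37 library lay above every vehicle library, and the 24 h pair lay above the 12 h pair. The log2 change was 0.67 at 24 h (SE 0.09, adjusted p = 1.75e-05), and it passed in 14 of 14 alternative settings. At 12 h it was 0.30 (SE 0.09, adjusted p = 0.0497), and that call was lost in 11 of 14 alternatives, with adjusted p from 0.00777 to 0.341. The difference between the 2 times, a log2 change of 0.37 (SE 0.13, adjusted p = 0.0605), missed the threshold. The level of NPC1 per kb relative to NPC2 was 0.160 ± 0.00600 and 0.169 ± 0.0225 in vehicle at 12 h and 24 h, and 0.207 ± 0.00497 and 0.256 ± 0.00808 in EMD37 (mean ± SD, n = 2). This ratio was chosen after the values were seen and carries no test.

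SOAT1 (ENSG00000057252, chromosome 1, 179293714 to 179358680, plus strand), the acyltransferase that forms cholesterol esters, moved with EMD37 at the later time. At 12 h vehicle measured 330.2 and 322 CPM and EMD37 305 and 294 CPM. At 24 h vehicle measured 283 and 274 CPM and EMD37 372 and 414 CPM. EMD37 libraries were below vehicle at 12 h and above it at 24 h, and the 24 h vehicle libraries were the lowest of the 8. The log2 change was -0.12 at 12 h (SE 0.08, adjusted p = 0.367) and 0.50 at 24 h (SE 0.08, adjusted p = 6.22e-05). The change differed between the times by 0.62 on the log2 scale (SE 0.11, adjusted p = 0.000907). In vehicle alone the log2 difference of 24 h from 12 h was -0.23 (SE 0.08, adjusted p = 0.0865), which did not pass.

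NCEH1 (ENSG00000144959, chromosome 3, 172630249 to 172711218, minus strand), a neutral cholesterol ester hydrolase of the endoplasmic reticulum membrane, moved the other way. Vehicle libraries measured 512 and 527 CPM at 12 h and 529.5 and 509 CPM at 24 h. EMD37 libraries both measured 504 CPM at 12 h, and 352 and 379 CPM at 24 h. The other 6 libraries lay within 504 to 529.5 CPM, and the 24 h EMD37 pair stood below them. The log2 change was -0.04 at 12 h (SE 0.07, adjusted p = 0.778) and -0.51 at 24 h (SE 0.07, adjusted p = 3.73e-05). The difference between the times was -0.46 on the log2 scale (SE 0.10, adjusted p = 0.00589). That difference missed the threshold without vehicle library A at 12 h (adjusted p = 0.0531), EMD37 library B at 12 h (0.0549) or EMD37 library A at 24 h (0.0534). The 24 h change passed in 14 of 14 alternatives. The change differed between the times in 2 of 9 members, SOAT1 upward and NCEH1 downward, and in 15.9% of all genes (7.96% upward and 7.94% downward).

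**Figure D2:**
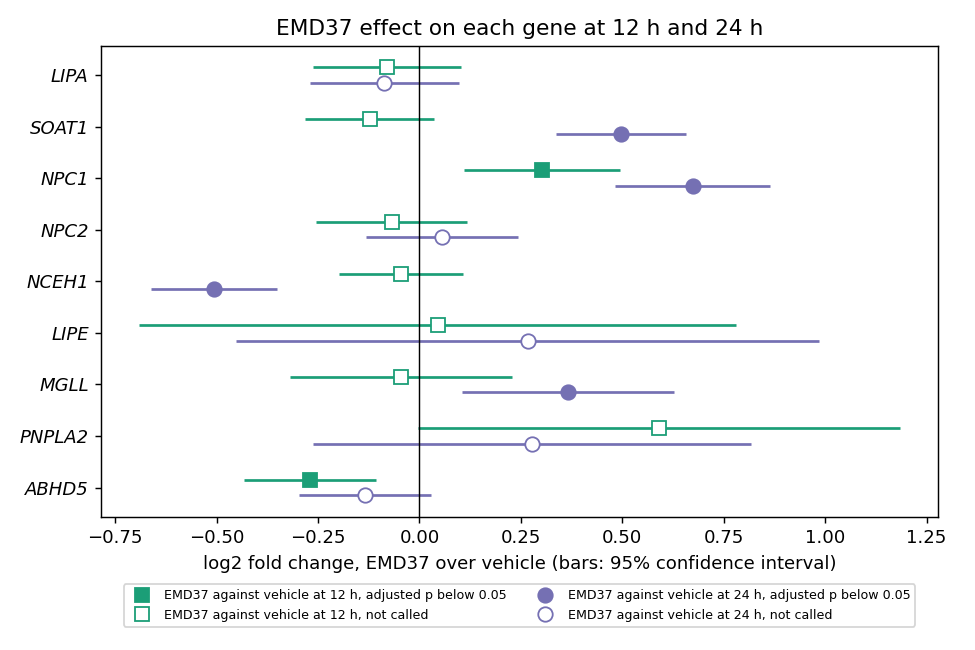
Log2 change of each of the 9 genes at 12 h and 24 h, EMD37 against vehicle, with 95% intervals from the edgeR fit; filled points passed an adjusted p of 0.05. At 24 h SOAT1 (0.50), NPC1 (0.67) and MGLL (0.37) lie above 0, NCEH1 (-0.51) lies below it, and the LIPA intervals span 0 at both times.

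Set against each other per kb of exon, SOAT1 stood at 0.431 ± 0.0167 of NCEH1 in vehicle at 12 h, 0.408 ± 0.00993 in EMD37 at 12 h and 0.368 ± 0.00164 in vehicle at 24 h (mean ± SD, n = 2). In EMD37 at 24 h the ratio was 0.738 ± 0.0177, from libraries at 0.725 and 0.750. The 6 other libraries ran from 0.367 to 0.442, so the 24 h EMD37 pair stood apart. The ratio of SOAT1 to LIPA was 1.76 and 1.86 in vehicle and 2.76 and 2.67 in EMD37 at 24 h, against 2.05 to 2.27 over the 4 libraries at 12 h. These ratios were chosen after the values were seen, and no test was made.

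**Figure D3:**
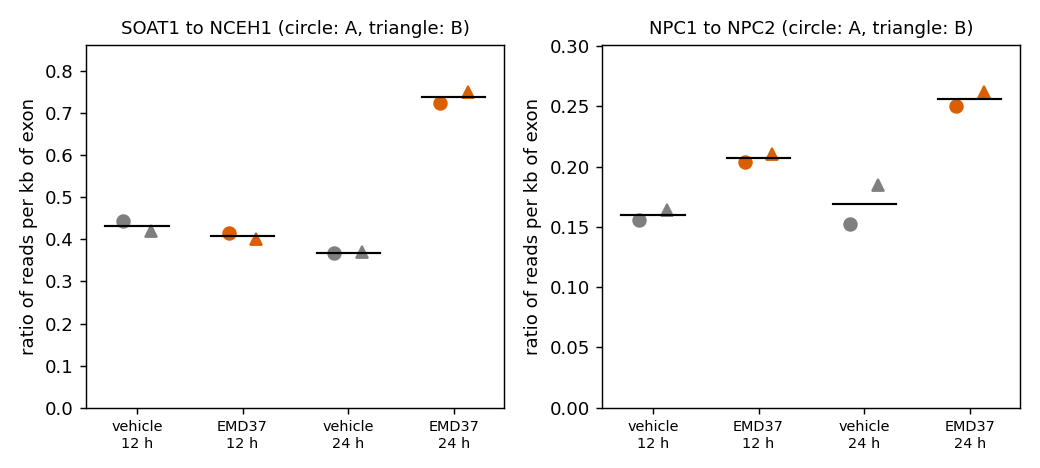
Ratios of reads per kb of exon, SOAT1 to NCEH1 and NPC1 to NPC2, in each library, by group, with 1 point per library and a bar at the group mean. The SOAT1 to NCEH1 ratio is 0.725 and 0.750 in the EMD37 libraries at 24 h and at most 0.442 in the other 6.

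LIPE (ENSG00000079435, chromosome 19, 42401507 to 42427426, minus strand), hormone-sensitive lipase, which splits diglycerides and cholesterol esters, had 19 to 28 reads per library. It measured 2.03 and 1.97 CPM in vehicle and 1.75 and 2.39 CPM in EMD37 at 12 h, and 1.76 and 2.48 against 2.96 and 2.12 CPM at 24 h. The groups overlapped at both times. In the test, LIPE stood at a log2 change of 0.04 (SE 0.35, adjusted p = 0.961) at 12 h and 0.27 (SE 0.34, adjusted p = 0.568) at 24 h. The 95% interval of the fold at 24 h ran from 0.731 to 1.98.

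PNPLA2 (ENSG00000177666, chromosome 11, 818902 to 825573, plus strand), the lipase of the first step of triglyceride breakdown, had 40 to 98 reads. It measured 4.06 and 5.05 CPM in vehicle and 6.36 and 7.46 CPM in EMD37 at 12 h, and 5.37 and 10.6 against 9.93 and 9.17 CPM at 24 h. EMD37 lay above vehicle at 12 h, and at 24 h vehicle library B was the highest of the 8. For PNPLA2 the log2 change was 0.59 (SE 0.28, adjusted p = 0.229) at 12 h and 0.28 (SE 0.25, adjusted p = 0.416) at 24 h. The 24 h value was 0.827 (adjusted p = 0.00546) without vehicle library B and -0.115 without vehicle library A.

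ABHD5 (ENSG00000011198, chromosome 3, 43690108 to 43734371, plus strand), also called CGI-58, activates PNPLA2. It measured 192 and 183 CPM in vehicle and 163 and 148 CPM in EMD37 at 12 h. At 24 h vehicle measured 161 CPM in both libraries and EMD37 143 and 151 CPM. EMD37 was below vehicle at both times, and the 12 h vehicle pair was the highest of the 8. The log2 change was -0.27 at 12 h (SE 0.08, adjusted p = 0.0379) and -0.13 at 24 h (SE 0.08, adjusted p = 0.183). The 12 h call was lost in 8 of 14 alternatives, among them the removal of any single 12 h library, with adjusted p from 0.00341 to 0.421. The difference between the times was 0.14 (SE 0.11, adjusted p = 0.443).

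MGLL (ENSG00000074416, chromosome 3, 127689062 to 128052190, minus strand) splits monoglycerides, the last step of triglyceride breakdown. It measured 47.8 and 53.3 CPM in vehicle and 49.4 and 48.7 CPM in EMD37 at 12 h, and 55.8 and 78.6 against 88.7 and 84.1 CPM at 24 h. The 24 h vehicle libraries lay apart, with B near the EMD37 pair. The log2 change was -0.04 (SE 0.13, adjusted p = 0.883) at 12 h and 0.37 (SE 0.12, adjusted p = 0.026) at 24 h. Without vehicle library A at 24 h the adjusted p was 0.251, and without vehicle library B it was 1.29e-06. The call was also lost without EMD37 library A (0.094) or B (0.0761) at 24 h, without EMD37 library A at 12 h (0.0509), or with only the 24 h groups fitted (0.0717).

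Between the vehicle groups, 0 of 9 members passed from 12 h to 24 h in edgeR, where 5.99% of all genes passed (2.75% higher and 3.25% lower). DESeq2 also called 0, and 4 members, SOAT1, MGLL, PNPLA2 and ABHD5, had an unadjusted p under 0.05. MGLL was at 0.41 (SE 0.13, adjusted p = 0.0698) and PNPLA2 at 0.78 (SE 0.28, adjusted p = 0.106). Without vehicle library A at 24 h, both passed, at 0.621 (adjusted p = 1.02e-05) and 1.186 (adjusted p = 0.000122). In both genes vehicle library B at 24 h lay above vehicle library A.

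Per kb of exon (RPKM, CPM divided by the union exon length), the order of the medians over the 8 libraries was NCEH1 at 105, SOAT1 at 44.7, NPC2 at 34.1, ABHD5 at 21.4, LIPA at 20.9, NPC1 at 6.21, MGLL at 4.60, PNPLA2 at 1.80 and LIPE at 0.399. NCEH1, from 73.3 to 110 RPKM, exceeded SOAT1, from 39.1 to 59.1 RPKM, in every library. ABHD5 (18.9 to 25.4) and LIPA (19.3 to 22.9) overlapped, as did NPC1 (5.30 to 9.51) and MGLL (4.03 to 7.49). The other neighbours in this order did not overlap. Part of the exon length lies under another gene for 6 of the 9, from 2.3% in ABHD5 (ANO10) to 9.6% in LIPE (LIPE-AS1) and 10.4% in PNPLA2 (AP006621.1). The library kit does not mark strand, so reads there cannot be assigned to either gene. SOAT1, NCEH1 and MGLL share no exonic base with another gene.

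Over the 8 libraries, the genes most like LIPA in log2 CPM among 10408 genes were ASF1A (Pearson r = 0.938), ELOVL6 (0.922) and RNFT2 (0.918). Those most like NPC1 were ARFGAP3 (0.997), RHOQ (0.993) and RPN1 (0.992). These values describe patterns over 4 groups of libraries that share their treatment and carry no p. LIPA did not pass in any comparison tested, so its correlations may follow spread between single libraries, which was not tested.

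The wider pathway was followed in 94 other genes in 6 lists, of which 78 passed the filter. The lists were chosen with earlier results of these data known, so their shares carry no test against the background. At 24 h 46 of 78 passed the test (59%, beside 40.7% of all genes), 31 higher and 15 lower, with a median log2 change of 0.221. At 12 h 17 passed (21.8%, beside 8.7%), 15 higher and 2 lower, with a median of 0.147. The median over all genes was -0.006 at 12 h and -0.033 at 24 h. The 12 h count fell without any single 12 h library and rose without either 24 h vehicle library. The 12 h count over all genes moved the same way in each case. The change differed between the times for 19 of 78 genes (24.4%, beside 15.9%). That count fell without EMD37 library B at 12 h or at 24 h and rose without vehicle library B at 24 h. The matching count over all genes again moved the same way. Genes given below with a log2 change but no SE were named after their values were seen.

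Of 17 genes of sterol egress and transfer, 6 rose and 5 fell at 24 h (64.7%, beside 40.7% of all genes). Their median log2 change was -0.131. OSBP, which exchanges cholesterol for a phosphoinositide between membranes, rose from 77.6 ± 0.12 to 140 ± 0.62 CPM (mean ± SD, n = 2; log2 change 0.85, SE 0.08). Its relative OSBPL2 rose by 0.90 (SE 0.10) and LAMP1, a lysosomal membrane protein, by 0.62 (SE 0.09). TMEM97, a sterol-responsive protein that binds NPC1, changed by -0.92 (SE 0.09), from 110 to 58.2 CPM. The other 4 that fell were GRAMD1B (-0.86) and GRAMD1C (-0.85), which carry cholesterol from the plasma membrane to the endoplasmic reticulum, GPR155 (-0.53), a lysosomal cholesterol sensor, and ANXA6 (-0.24). GRAMD1B was low, at 2.82 CPM in vehicle and 2.38 CPM in EMD37 at 12 h, and 5.34 and 2.92 CPM at 24 h. The part of its higher 24 h vehicle level in the change was not tested. The GRAMD1B call was lost in 2 of 14 alternatives, among them without EMD37 library A at 24 h. The GPR155 call was lost in 7 of 14, among them without any single 24 h library. ANXA6 was called higher at 12 h (0.32, adjusted p = 0.0358) and lower at 24 h (adjusted p = 0.04997), with a difference between the times of -0.56 (adjusted p = 0.00735). Its 12 h call was lost in 6 of 14 alternatives, among them without any single 12 h library. Its 24 h call was lost in 12 of 14, at -0.149 without vehicle library A and -0.118 without EMD37 library B at 24 h. The difference was lost in 1 of 13 alternatives, without EMD37 library B at 12 h (adjusted p = 0.075). LAMP2 was listed at 0 reads in all 8 libraries; how reads were counted was not given, so this value sets no limit on its expression.

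Among 13 lysosomal lipid hydrolases and helpers, 4 rose and 3 fell at 24 h (53.8%, beside 40.7% of all genes). Their median log2 change was 0.230. PSAP, the precursor of the saposins, rose from 266 ± 33 to 520 ± 7.6 CPM (log2 change 0.97, SE 0.08), and HEXA, a ganglioside hydrolase subunit, rose by 1.03 (SE 0.14). CTSD, a lysosomal protease, rose by 1.27 (SE 0.20), from 21.8 ± 9.7 CPM in vehicle, and ran from 0.887 to 1.798 with a library left out. GALC, which splits galactosylceramide, changed by -0.56 (SE 0.12). GLA also rose (0.41), a call lost in 6 of 14 alternatives, among them without vehicle A, EMD37 A or EMD37 B at 24 h, and GM2A fell (-0.42). At 12 h 0 of 13 passed in edgeR, where 8.7% of all genes passed. DESeq2 called 0, and 3 had an unadjusted p under 0.05 in edgeR.

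Of 13 other lipases, 3 rose and 1 fell at 24 h (30.8%, beside 40.7% of all genes), with a median of 0.105. PNPLA8, a phospholipase, rose by 1.01 (SE 0.08), from 54.5 to 110 CPM, and had risen by 0.77 at 12 h. DAGLB, a diglyceride lipase, rose by 1.07 (SE 0.17) and PNPLA6, a lysophospholipase, by 1.02 (SE 0.23). PNPLA6 was at 0.663 without vehicle library A at 24 h and 1.504 without library B. With a library left out, DAGLB ran from 0.784 to 1.439. PNPLA3, a droplet protein related to PNPLA2, was at 5.66 ± 0.24 CPM in vehicle and 1.22 ± 0.22 CPM in EMD37 (log2 change -2.21, SE 0.41). At 12 h PNPLA3 was at 2.35 ± 1.7 CPM in vehicle and 1.48 ± 0.12 CPM in EMD37. The part of the higher 24 h vehicle level in the PNPLA3 change was not tested.

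Of 8 lipase cofactors and droplet coats, 2 rose and 2 fell at 24 h (50%, beside 40.7% of all genes). Their median log2 change was -0.023. PLIN2, the coat protein of lipid droplets in most cells, rose from 63.1 ± 1.4 to 180 ± 17 CPM (log2 change 1.51, SE 0.09). G0S2, an inhibitor of PNPLA2, rose by 1.06 (SE 0.14). HILPDA, another inhibitor of PNPLA2, changed by -0.61 (SE 0.15), a call lost without EMD37 library A at 24 h (adjusted p = 0.0693). FAF2, a droplet protein that recruits VCP, changed by -0.24 (SE 0.07), a call lost in 5 of 14 alternatives, among them without vehicle library A (adjusted p = 0.163) or EMD37 library A (0.15) at 24 h.

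Of 12 genes of ester formation and cholesterol entry or export, 5 rose and 3 fell at 24 h (66.7%, beside 40.7% of all genes). Their median log2 change was 0.092. ABCA1, the exporter of cholesterol to apolipoproteins, rose from 36.3 ± 1.1 to 161 ± 6.6 CPM (log2 change 2.15, SE 0.10) and had risen by 1.99 (SE 0.11) at 12 h. VLDLR, a lipoprotein receptor, rose by 1.46 (SE 0.19). It measured 12.9 CPM in vehicle and 19.2 CPM in EMD37 at 12 h, and 7.23 and 20.0 CPM at 24 h. The part of the lower 24 h vehicle level in the VLDLR change was not tested. DGAT2, which forms triglyceride, fell from 26.2 ± 0.42 to 7.21 ± 1.7 CPM (log2 change -1.85, SE 0.17), and NR1H3, the oxysterol receptor LXR alpha, changed by -0.94 (SE 0.19). ABCG1, another cholesterol exporter, rose by 1.76, MYLIP, which marks lipoprotein receptors for degradation, by 0.63 and NR1H2, the oxysterol receptor LXR beta, by 0.64. The ABCG1 level was low, at 0.516 ± 0.337 CPM in vehicle and 1.72 ± 0.252 CPM in EMD37 at 24 h, so its fold rests on few reads. The ABCG1 call was lost in 3 of 14 alternatives, among them without vehicle library A (adjusted p = 0.161) or EMD37 library A (0.0872) at 24 h. NR1H2 was at 0.22 (adjusted p = 0.257) without vehicle library A at 24 h and 1.244 without library B, and its call was lost in 5 of 14 alternatives, also without EMD37 A or B at 24 h or EMD37 A at 12 h. DGAT2 had already changed by -0.94 (SE 0.16) at 12 h.

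Of 15 regulators of lysosomal and lipolytic genes, 11 rose and 1 fell at 24 h (80%, beside 40.7% of all genes). Their median log2 change was 0.617. RRAGC rose from 24.3 ± 1.8 to 99.4 ± 0.91 CPM (log2 change 2.03, SE 0.10), and its relative RRAGD by 1.35 (SE 0.09). Both are GTPases that link amino acid supply to the lysosome. FLCN and FNIP1, which act on them as a complex, rose by 1.03 (SE 0.14) and 1.49 (SE 0.08). The gene that fell was PPARG (-0.29), a call lost in 13 of 14 alternatives, with -0.152 (adjusted p = 0.371) without vehicle library A at 24 h. At 12 h 5 of the 15 rose and 0 fell (33.3%, beside 8.7% of all genes). They were FLCN, FNIP1, RRAGC, and SREBF1 (1.06) and SREBF2 (0.73), which drive lipid and sterol synthesis genes. Each of these 5 calls was lost without at least 1 of the 12 h libraries: FLCN and SREBF2 without any of the 4, RRAGC without vehicle B, EMD37 A or EMD37 B, SREBF1 without vehicle A or EMD37 A, and FNIP1 without EMD37 B. Among genes of these 6 lists given with a log2 change, OSBP, PNPLA8, ABCA1, DGAT2 and LIPG (described below) held their 12 h call in 14 of 14 alternatives.

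**Figure D4:**
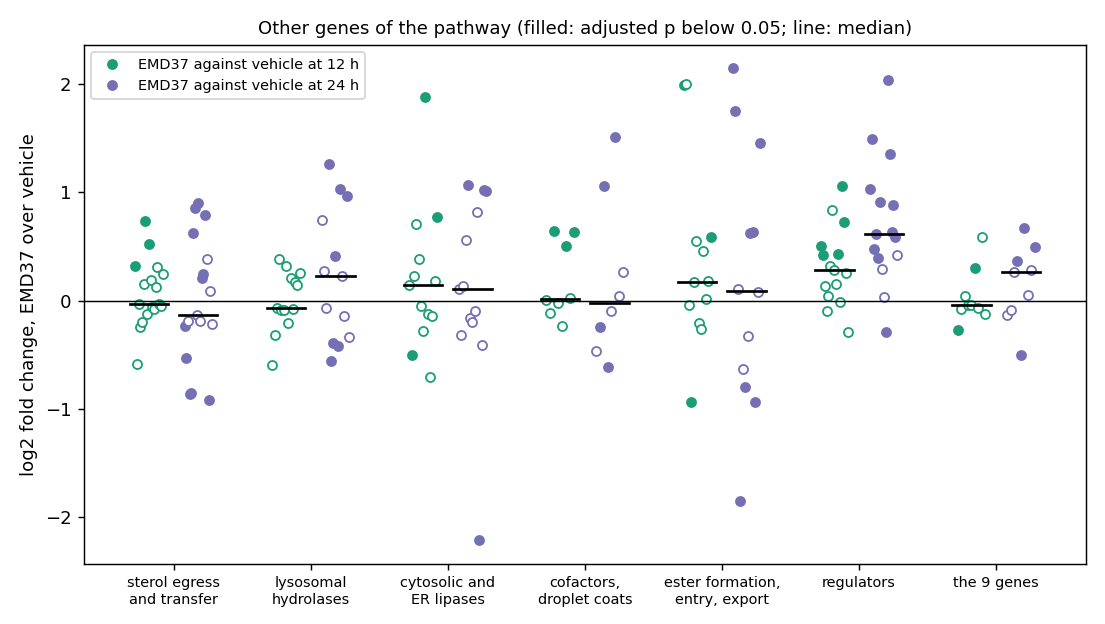
Log2 change, EMD37 over vehicle, of every tested gene of the 6 wider lists and of the 9 members at 12 h and 24 h, with 1 point per gene, filled points for an adjusted p under 0.05 and a line at the median. The regulators have the highest median at 24 h (0.617), and the members lie between -0.51 and 0.67 at that time.

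**Figure D5:**
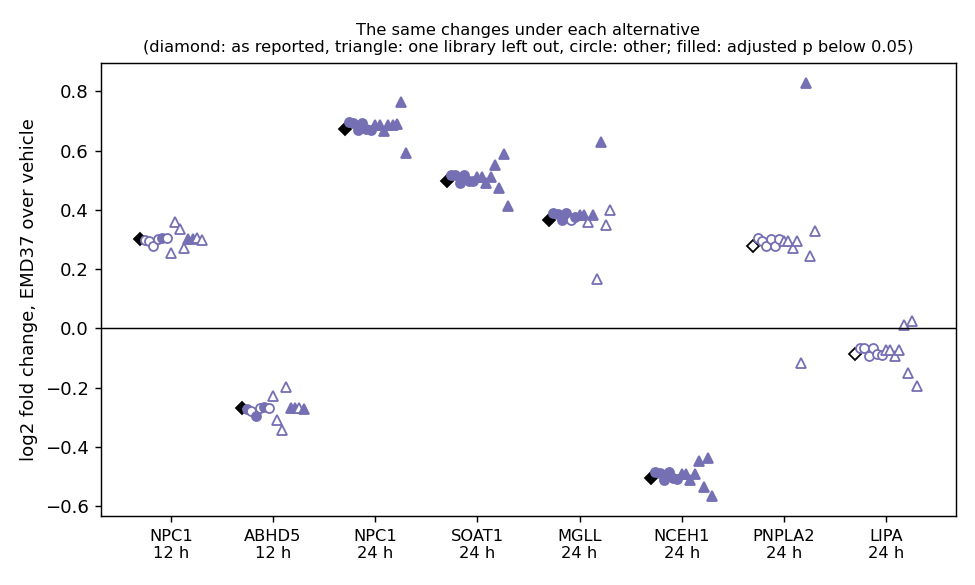
Log2 change, EMD37 over vehicle, of 6 members at 24 h and of NPC1 and ABHD5 at 12 h, as reported (diamond), with a library left out (triangle) and in the other alternatives (circle), filled where the adjusted p was under 0.05. SOAT1, NPC1 and NCEH1 at 24 h are filled in every alternative, while MGLL runs from 0.166 to 0.629 and PNPLA2 from -0.115 to 0.827.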

How the data were processed

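RNA from 8 libraries was prepared with the TruSeq V2 RNA-Seq kit, per the labels' protocols. The submitters' processing notes name FastQC, STAR, DESeq2 and build hg38. Their versions are not given in the sources used here, nor are the read counter and its handling of strand. Whole-number read counts per gene were deposited by the authors and entered every test. The deposited normalized values (signal) were these counts divided by a size factor per library, with a ratio constant to 9.7e-10. The copy of the count table ended inside a line. Reads of 6912 genes found only in the normalized table were recovered (55296 of 55296 values whole within 0.01; 8.26% to 11.66% of all reads) and entered 1 alternative. Columns of no sample numbered 0.

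Genes were named, and exon lengths and positions taken, from GENCODE 29. The tests were run in edgeR 4.0.16 (R 4.3.3). The filterByExpr filter, at its minimum of 10 counts, left 14850 genes, TMM factors ran from 0.948 to 1.03, and 1 model with a mean per group (4 residual degrees of freedom, biological coefficient of variation 0.0733) gave each quasi-likelihood test. Calls needed a Benjamini-Hochberg adjusted p below 0.05 over all genes. Intervals are at 95%. DESeq2 1.42.0, other filters and samples, and each library left out were alternatives. The labels do not say that libraries A and B came from separate cultures, so p-values measure only the spread between these libraries, which may be technical. The 9 members and the lists were chosen with earlier results of these data known. Beyond the members, the rule named up to 4 genes per list, those with the smallest p at 24 h among called genes that reached 5 CPM in a group. Genes alike in pattern were the 3 with the highest correlation, with a mean of at least 5 CPM. The alternatives for genes outside the members were added after the data were seen. Promoter sequences came from RefSeq (GRCh38.p14). Some results for genes of the wider lists are not reported here.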

Additional observations from a re-analysis of the deposited data

Results flagged for a closer look

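The effect of EMD37 differed between 12 h and 24 h by the interaction test in 2 of the 9 genes. For SOAT1 the log2 change at 24 h exceeded that at 12 h by 0.619 (adjusted p = 0.000907), and the difference passed in 13 of 13 alternatives, where it ran from 0.538 to 0.711. For NCEH1 the 24 h change lay below the 12 h change, with a difference of -0.461 (adjusted p = 0.00589), from -0.517 to -0.393 over the alternatives. Without vehicle library A at 12 h, EMD37 library B at 12 h or EMD37 library A at 24 h, the NCEH1 difference had an adjusted p of 0.0531, 0.0549 and 0.0534. The vehicle level of SOAT1 was itself 326 ± 5.92 CPM at 12 h and 279 ± 6.44 CPM at 24 h (mean ± SD, n = 2), and that of NCEH1 was 519.7 ± 10.7 and 519.4 ± 14.3 CPM. The part of the vehicle level in the SOAT1 difference was not tested. With 2 libraries per group, no group was large enough for a test of single outlying libraries.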

How the results depend on the processing

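Of 492 member values under the alternatives, 433 kept their direction and side of the threshold, 27 lost a call, 6 gained one and 26 changed sign, 0 of those among values called in the fit reported. At 12 h the count of members called was 2 as reported, 1 with DESeq2 size factors or with no filter on low counts, and 0 with the DESeq2 Wald test, with recovered reads added or with the replicate block, and 0 to 2 with a library left out. At 24 h 4 members were called in the fit reported and 3 to 5 with a library left out. The interaction count of 2 ran from 1 to 3, and the vehicle count of 0 was 2 with no filter and 0 to 2 with a library left out. For the other pathway genes, leaving out a library gave 8 to 26 at 12 h (17 reported), 11 to 32 for the interaction (19) and 3 to 25 in vehicle (6), which was 10 with no filter and 2 with only the groups compared. The vehicle count of 25 came without vehicle library A at 24 h. LIPA had an interaction value of -0.007, and 0.017 with DESeq2 size factors, 0.019 with the Wald test, 0.012 with no filter and 0.013 with recovered reads. NCEH1 in vehicle was at 0.004 with recovered reads and 0.005 with only the groups compared. With a library left out, the signs of these uncalled values were not stable. At 12 h LIPE ran from -0.186 to 0.256 and MGLL from -0.111 to 0.031. At 24 h LIPA ran from -0.195 to 0.026, NPC2 from -0.058 to 0.214 and PNPLA2 from -0.115 to 0.827. For the interaction, LIPA ran from -0.113 to 0.104, LIPE from -0.01 to 0.473 and PNPLA2 from -0.704 to 0.238. In vehicle, LIPA ran from -0.029 to 0.131, NPC1 from -0.012 to 0.091, NPC2 from -0.168 to 0.104, NCEH1 from -0.044 to 0.045 and LIPE from -0.165 to 0.295. The cause of these shifts was not tested. Whether the letters A and B pair the libraries is not stated in the labels. Deviations of the A libraries correlated at -0.426 to 0.424 between groups, which cannot decide this with 2 libraries per group. With the letter as a replicate block, 0 members were called at 12 h, 4 at 24 h, 2 for the interaction and 0 in vehicle, and 17, 43, 19 and 5 other pathway genes. The groups-only fit gave no separate interaction value, since that test uses all 8 libraries. LIPE at 19 to 28 reads and PNPLA2 at 40 to 98 reads are the members whose depth limits the test most.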

Other observations

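The gene described here was chosen after its values were seen. LIPG, the endothelial lipase, which acts on lipoprotein phospholipids at the cell surface, rose at 12 h and not at 24 h. It measured 7.12 ± 0.45 CPM in vehicle and 26.4 ± 0.22 CPM in EMD37 at 12 h (mean ± SD, n = 2; log2 change 1.89, SE 0.17, adjusted p = 6.51e-07 in edgeR). At 24 h the values were 6.35 ± 0.47 and 5.93 ± 0.87 CPM (log2 change -0.10, SE 0.20, adjusted p = 0.728). The difference between the times was -1.98 (SE 0.26, adjusted p = 7.87e-05) and passed in 13 of 13 alternatives.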
